A study of Homo sapiens with 30 samples.

Results

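The genes of the muscle sarcomere, with the factors that switch on the muscle program, were followed in LOUCY, an established human line of early T cell precursor acute lymphoblastic leukemia (ETP-ALL), after induction of the transcription factor MEF2C, of the active form of NOTCH1 or of both. The members were 42 striated and smooth muscle genes chosen by name, of 19775 genes with a probe set of their own. The choice was made with earlier results of these data known. Of the 42 members, 41 were measured and *MYBPC3* had no probe set that lists it alone. Where several probe sets list a gene, the one brightest on average over the 30 arrays stands for it, and 15 had a mean log2 value of 5 or more, the level taken here as above background. With MEF2C they moved in both directions: *CSRP3* rose at least 18.9-fold in medium, and *TTN* fell by 1.54 on the log2 scale. None of the 5 myogenic transcription factors passed the test in any comparison, but only *MYOD1* among them had a mean of 5 or more. The share of all genes that passed in none was not counted.

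There were 10 groups of 3 samples, each hybridised to 1 Affymetrix HG U133 Plus 2.0 array. The MEF2C line carries a doxycycline (dox) inducible, codon-optimised human MEF2C that lacks the β transactivation domain (LOUCY_MEF2C-BFP), and it was cultured without and with dox under 3 conditions, in medium or on a stroma, either OP9-GFP or OP9-DL1. OP9 is a mouse bone marrow stroma, and OP9-DL1 also carries the Notch ligand DL1. The ICN line carries a dox-inducible intracellular NOTCH1 (ICN), and the MEF2C and ICN line carries both constructs; these 2 lines were grown in medium, without and with dox. Dox was used at 0.5 μg/mL, with an induction of 24 hours given for the MEF2C line and none given for the other lines. LOUCY already expresses MEF2C of its own. The MEF2C line was made by lentiviral transduction and flow sorting, per the study's methods, while the sources used here do not give how the lines with ICN were made. With 1 line of each kind, a construct and the line that carries it cannot be told apart, and no line without a construct was analysed here under dox, so dox and construct cannot be told apart either. Whether the 3 replicates of a group were cultured separately is not stated. The p-values therefore reflect the spread between arrays alone, which may be technical.

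Striated muscle is built from repeating sarcomeres, in which thin filaments of actin, tropomyosin and troponin slide along thick filaments of myosin. Titin spans from the Z disc, where thin filaments are anchored, to the M band in the middle of the thick filament, and dystrophin links the contractile apparatus to the membrane. MEF2 factors take their name from muscle, where they act with the MyoD family (*MYOD1*, *MYOG*, *MYF5* and *MYF6*) to switch on sarcomere genes. In blood cells, MEF2C is known for its part in early lymphoid and B cell development, and NOTCH1 for commitment to the T lineage.

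The inducible genes were read first. The MEF2C probe set that rises with the construct went up by 0.53 ± 0.14 (log2 fold change with standard error) in medium, 1.23 ± 0.14 on OP9-GFP, 0.63 ± 0.14 on OP9-DL1 and 0.66 ± 0.14 in the MEF2C and ICN line. The rise in the MEF2C and ICN line and that in the MEF2C line in medium differed by 0.14 ± 0.20 (limma, adjusted p = 0.783). By the study's legend this probe set also covers the cloned cDNA, so it reads the cell's own transcript and the construct mixed. The own transcript fell by unlike amounts in the 2 lines, as given below. A similar net rise therefore does not show a similar induction of the construct. With ICN alone this probe set fell by 0.48 ± 0.14 (limma, adjusted p = 0.0293). Further *MEF2C* probe sets, by the study's description, match sequence that the cloned cDNA lacks and so read the cell's own transcript. Of those that the study describes, 2 were read here, as listing *MEF2C* alone. These 2 fell by 1.08 and 1.04 in medium and by 2.21 and 2.28 with MEF2C and ICN together, and the falls in the MEF2C and ICN line were larger than in medium, with differences of -1.13 ± 0.07 and -1.23 ± 0.09 (limma, adjusted p = 4.88e-12 and 1.35e-10). Of the 2 *NOTCH1* probe sets, the brighter changed by 0.01 ± 0.08 with ICN and 0.07 ± 0.08 with both (limma, adjusted p = 0.957 and 0.656). The dimmer, near or under 5 in these groups, rose by 0.56 ± 0.15 and 0.81 ± 0.15 (limma, adjusted p = 0.0129 and 0.000345).

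Of 8 Notch targets, 3 rose with ICN and 4 with both. *HEY1* rose by 4.96 with ICN and 2.26 with both, *DTX1* by 2.31 and 2.78, and *HES1* by 0.40 and 1.57 (limma, each with an adjusted p under 0.05). *HES4* rose by 1.34 with both (limma, adjusted p = 0.0433) and changed by 0.39 with ICN (limma, adjusted p = 0.676). *HEYL*, *NOTCH3*, *NRARP* and *PTCRA* passed in neither, with changes from -0.30 to 0.15. Some targets were already higher in the lines with ICN before dox: against the MEF2C line in medium, *HES1* was 4.61 higher in the ICN line and 3.75 higher in the MEF2C and ICN line, and *HEY1* 2.07 and 0.60 higher. *HES4* and *DTX1* were 1.78 and 1.55 higher in the ICN line (limma, adjusted p of all 6 up to 0.00408). In the MEF2C and ICN line they differed by 0.65 and 0.23 and did not pass (limma, adjusted p = 0.345 and 0.433). *HEYL*, *NOTCH3*, *NRARP* and *PTCRA* passed in neither line. Without dox, then, these lines were not at the levels of the MEF2C line for the targets that passed, and the ICN inductions start from there.

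Arrays of the same group correlated at 0.990 or more. Of 13 lineage markers of LOUCY, 11 had a mean of 5 or more, while of 29 stromal markers 11 did, led by *LGALS1* and *S100A6*. The markers *LUM*, *MGP* and *COL3A1* had means of 2.07, 2.07 and 3.15. The array was made for human genes and OP9 is from mouse, so a low marker does not show that stroma was absent. *LOX*, however, read 2.84, 2.43 and 2.96 in medium without dox and 3.64, 4.49 and 6.18 on OP9-GFP without dox, with means of 3.95 on OP9-GFP with dox and 3.34 on OP9-DL1 with dox, and values of 2.91, 3.16 and 4.12 on OP9-DL1 without. *COL1A2* had means of 4.41 in medium and 5.21 on OP9-GFP without dox. Replicate 3 on OP9-GFP was the highest of its group for both genes. But for the 6.18, the *LOX* values were under 5, where a difference in level cannot be read. Without dox, some other markers had lower means on OP9-GFP than in medium: *SPARC* 8.98 and 9.32, *COL5A1* 5.50 and 6.03, *FBN1* 5.04 and 5.50. On OP9-GFP against medium without dox 4 of the 29 stromal markers rose and 5 fell, beside 10.8% and 11.5% of all genes. The log2 of the summed stromal signal was 13.26 to 13.33 in medium and 13.23 to 13.37 on OP9-GFP without dox, but *LGALS1* and *S100A6*, bright in medium too, made up 56.3% to 85% of that sum, so it says little of stroma. It was lower with dox, at 12.68 to 12.81 in medium, 12.16 to 12.25 in the ICN line (12.69 to 12.77 without) and 11.45 to 11.51 in the MEF2C and ICN line (13.16 to 13.25 without), as *LGALS1* was in each. The part of stromal RNA in the results on stroma was not tested.

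Most muscle genes were dim in LOUCY. The 26 members with a mean under 5 were led by *MYOM1* at 4.99 and *MYL3* at 4.92, and the lowest of the others were *ACTA2* at 5.06 and *LDB3* at 5.08. *CSRP3* had a mean of 5.10, but 7 of its 10 group means were under 5, and *NEB*, with a mean of 3.81, reached a group mean of 5.30 with ICN. The gap between a dim and a bright probe set says nothing of which gene is the more expressed, since each probe set has its own brightness.

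**Figure D1:**
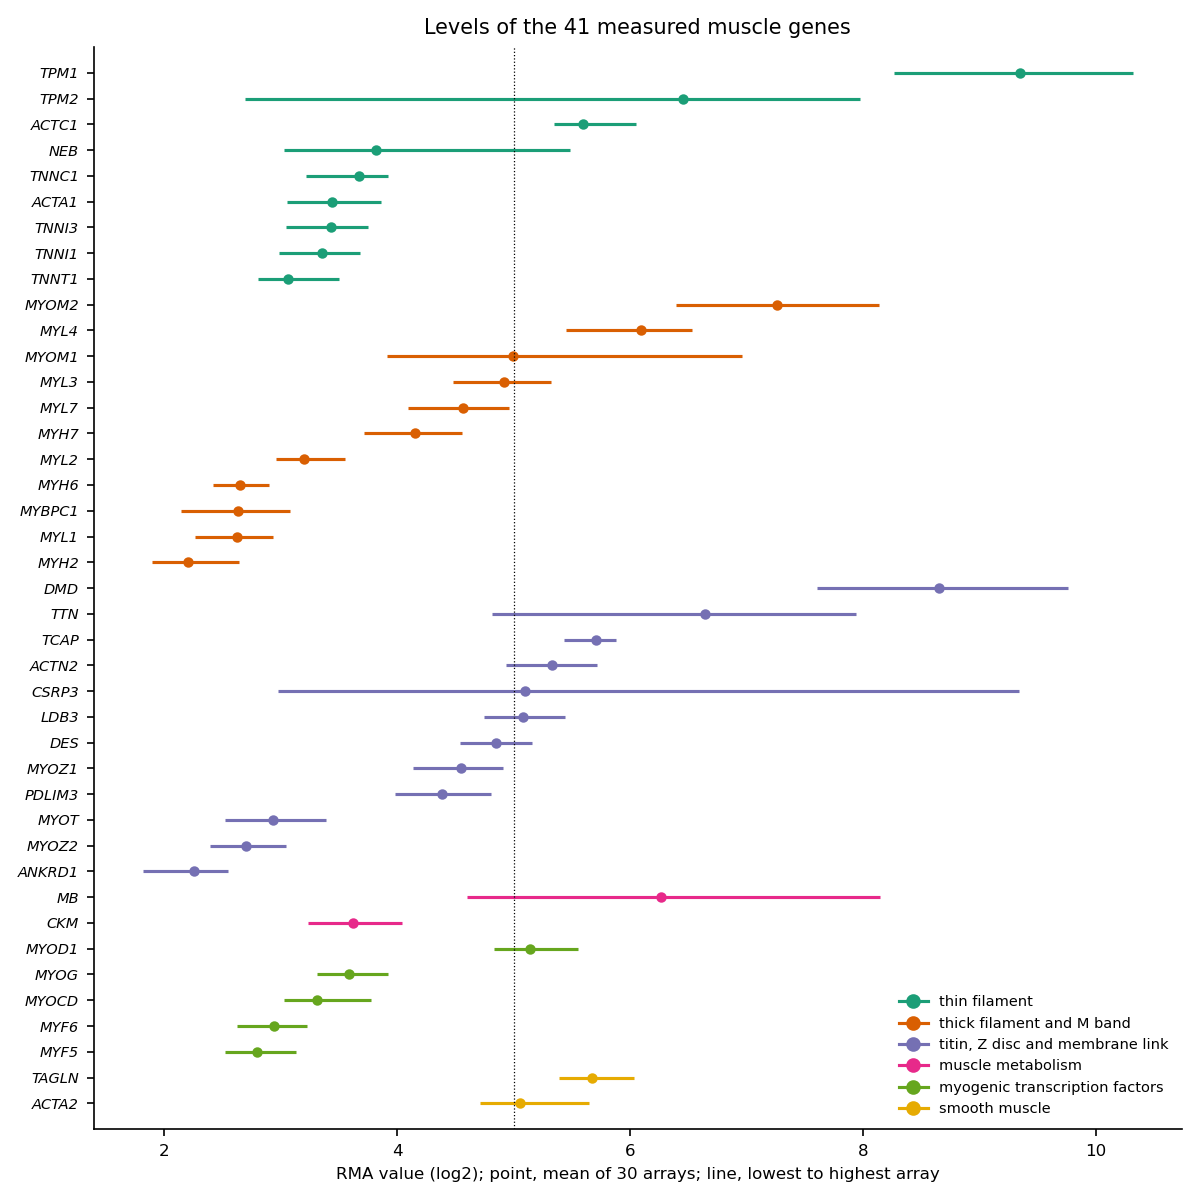
RMA value (log2) of the 41 measured muscle genes, one row each and coloured by role, with the mean of the 30 arrays as a point, the lowest to the highest array as a line, and the background level of 5 dotted. *CSRP3*, *TPM2*, *TTN* and *MB* spanned the widest ranges, while no myogenic factor or troponin spanned more than 0.75.

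Over the 3 cultures of the MEF2C line, with 9 arrays with dox set against 9 without, 2 of the 41 members rose and 2 fell at an adjusted p under 0.05, beside 3.4% of all genes that rose and 3.79% that fell. *CSRP3* and *DMD* rose, *TTN* and *NEB* fell, and the median over the members was -0.06 beside -0.01 over all genes. Culture by culture, 5 members rose and 2 fell in medium (5.03% and 3.58% of all genes), 3 rose and 4 fell on OP9-GFP (3.03% and 4.58%), and 4 rose and 2 fell on OP9-DL1 (2.57% and 3.33%). *CSRP3*, *DMD* and *MB* passed upward and *TTN* and *TPM1* downward in each of the 3 cultures. With culture as a covariate, 9 members passed over the 3 cultures, 5 up and 4 down, beside 7.26% and 7.48% of all genes.

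*CSRP3*, the muscle LIM protein of the Z disc, had the largest response of the members to MEF2C alone. In medium it read 5.01, 4.79 and 4.81 without dox and 9.34, 9.14 and 9.24 with dox. On OP9-GFP it read 3.99, 4.37 and 3.81 without dox and 7.55, 7.34 and 7.23 with dox. On OP9-DL1 it read 3.89, 3.90 and 3.64 without dox and 7.20, 7.31 and 7.03 with dox. In every culture all arrays with dox lay far above all arrays without, and the lowest of the 9 with dox was above the highest of the 9 without. Without dox it lay under the background level of 5 on 2 of 3 arrays in medium and on all arrays on stroma, so only a lower bound of the rise holds. Each array without dox was set to 5 where it read less, which gave a rise of at least 18.9-fold in medium, 5.18-fold on OP9-GFP and 4.53-fold on OP9-DL1. The fitted log2 fold change was 4.37 ± 0.16 in medium (limma, adjusted p = 3.29e-16). It was 3.32 ± 0.16 on OP9-GFP and 3.37 ± 0.16 on OP9-DL1 (limma, adjusted p = 6.19e-14 and 4.95e-14). Over the 3 cultures it was 3.69 ± 0.33 (limma, adjusted p = 1.89e-07).

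Without dox, *CSRP3* on OP9-GFP minus medium was -0.81 ± 0.16 (limma, adjusted p = 0.000394), but the means of both groups, 4.06 and 4.87, were under 5, where a difference in level cannot be read. The differences between the rises rest on the same values. Its rise on OP9-GFP minus that in medium was -1.05 ± 0.22 (limma, adjusted p = 0.0261), a call that was lost in 7 of the 12 fits that left out 1 array (adjusted p up to 0.102, without replicate 3 on OP9-GFP with dox, where the difference was -0.98) and in a fit on these 4 groups alone (adjusted p = 0.0733). The rises on OP9-DL1 and OP9-GFP differed by 0.05 ± 0.22, with a 95% interval from -0.40 to 0.51 (limma, adjusted p = 0.974).

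In the lines with ICN, *CSRP3* did not pass the test. In the ICN line it read 3.70, 3.53 and 3.70 without dox and 3.25, 2.97 and 3.33 with dox. In the MEF2C and ICN line it read 3.64, 3.96 and 3.33 without dox and 4.28, 3.65 and 4.004 with dox. The groups of the MEF2C and ICN line overlapped, all under the values of the uninduced MEF2C line in medium, and the ICN arrays with dox were all the lowest of their line. The change was -0.46 ± 0.16 with ICN (limma, adjusted p = 0.0543) and 0.33 ± 0.16 with both (limma, adjusted p = 0.188). The response to both minus that to MEF2C in medium was -4.04 ± 0.22 (limma, adjusted p = 7.36e-13). All arrays of the lines with ICN were under 5, so the sizes of these changes are not exact, while *CSRP3* with dox stayed below 5 there and reached 9.14 or more in the MEF2C line in medium. Against ICN alone the response to both was 0.79 ± 0.22 higher (limma, adjusted p = 0.0238), which was lost in 6 of 12 fits that left out 1 array (adjusted p up to 0.0931, at a difference of 0.64 without replicate 3 of the uninduced MEF2C and ICN line) and in a fit on these 4 groups alone (adjusted p = 0.088). Of the 81 genes that rose past 1 with MEF2C in medium, 19 also did with both (23.5% of the former and 11.5% of the 165 latter), and no member was among them.

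**Figure D2:**
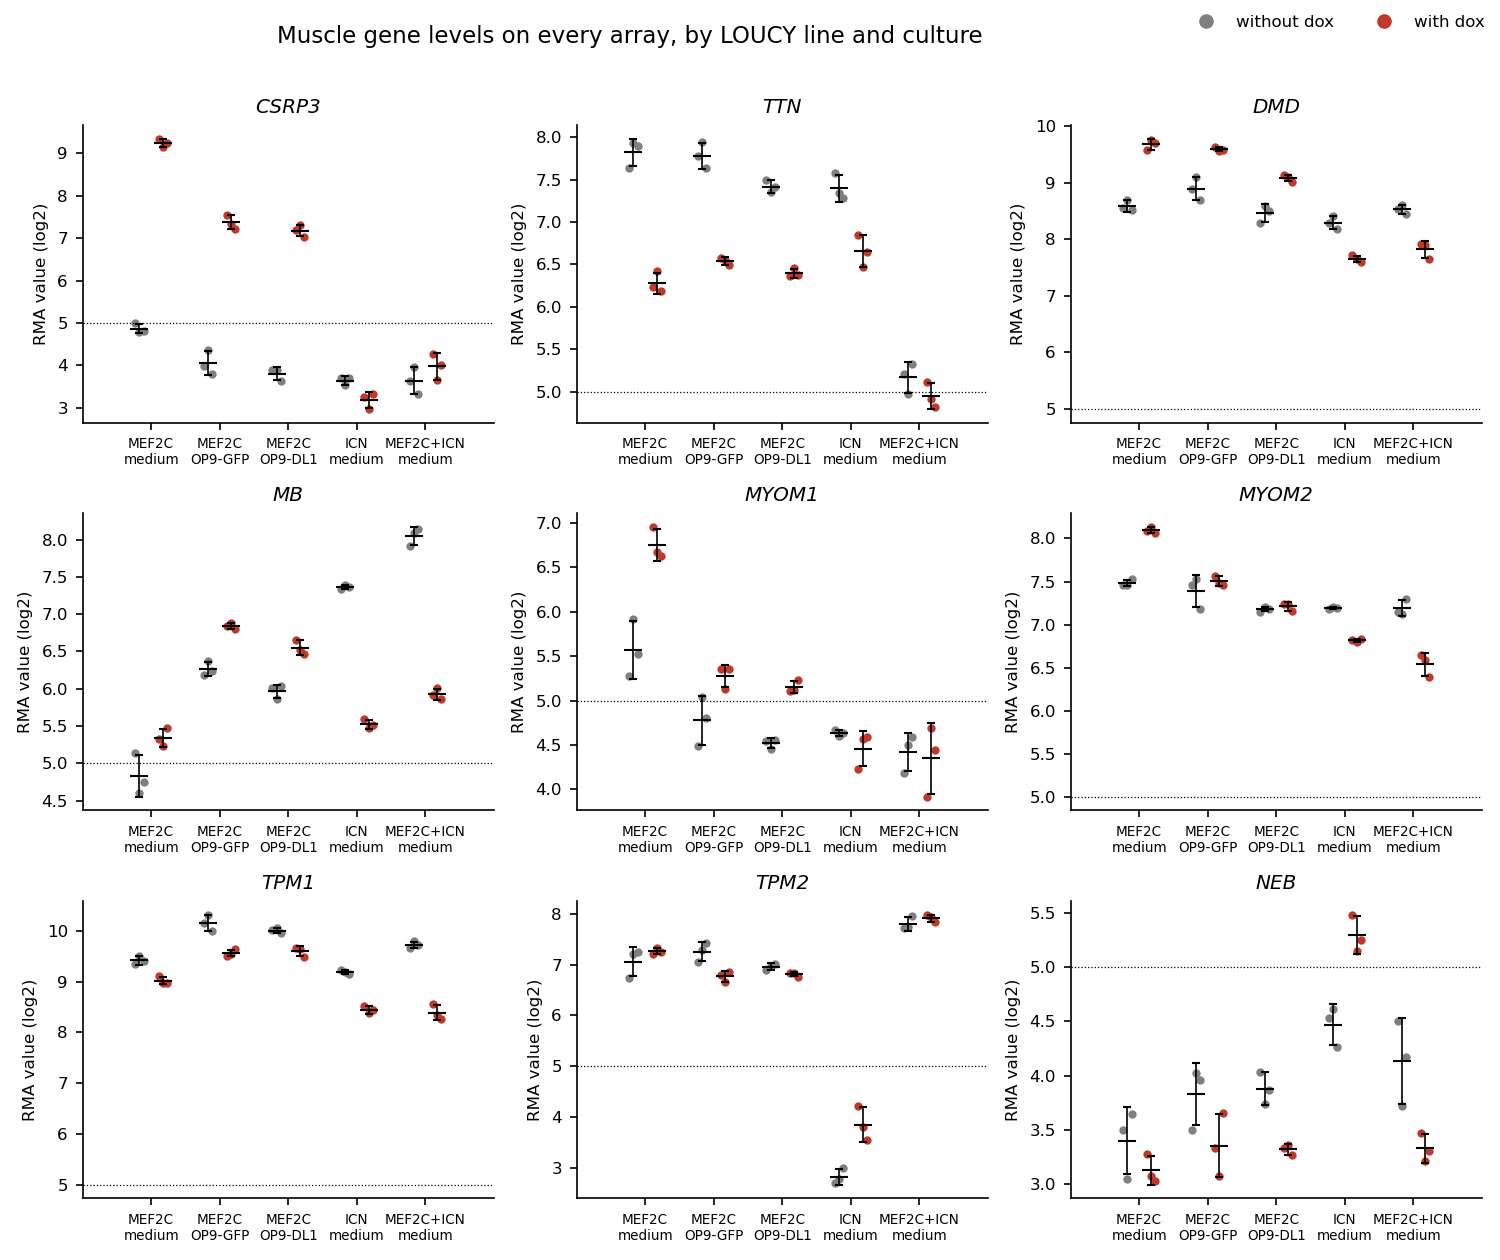
RMA value (log2) of 9 muscle genes on every array, for the MEF2C line in 3 cultures, the ICN line and the MEF2C and ICN line, without dox in grey and with dox in red; bars are the mean and SD of 3 arrays and the dotted line is the background level of 5. *CSRP3* with dox lay at 7.03 or more in the MEF2C line and at 4.28 or less in the lines with ICN, and *TPM2* was at or below 4.22 in the ICN line alone.

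*TTN*, *MYOM1* and *DMD* were, after *CSRP3*, the members that moved past 1 with MEF2C in medium, so the start regions that RefSeq gives for them (GRCh38.p14, all on the minus strand, 250 bases before to 50 after the start of transcription) are shown here. RefSeq windows were at hand for 30 of the 42 members, *CSRP3* and *MYOM2* not among them. Capitals mark a MEF2 element in *TTN* at position -167 from the start, a CArG box (the site of SRF) in *MYOM1* at -32, and a CArG box in *DMD* at -98 in 1 of its 7 windows, each searched on both strands. A MEF2 element was in 2.99% of all 35116 windows and a CArG box in 1.29%. By gene, 6 of 30 members held a MEF2 element beside 3.67% of all 27305 genes with a window, and 6 held a CArG box beside 1.6%.
TTN, chr2:178807374-178807673: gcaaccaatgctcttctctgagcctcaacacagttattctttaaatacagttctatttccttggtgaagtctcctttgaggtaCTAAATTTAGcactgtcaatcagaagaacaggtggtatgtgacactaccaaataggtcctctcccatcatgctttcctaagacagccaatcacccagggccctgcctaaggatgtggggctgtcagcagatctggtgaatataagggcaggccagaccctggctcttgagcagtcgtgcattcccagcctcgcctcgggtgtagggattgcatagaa
MYOM1, chr18:3219919-3220218: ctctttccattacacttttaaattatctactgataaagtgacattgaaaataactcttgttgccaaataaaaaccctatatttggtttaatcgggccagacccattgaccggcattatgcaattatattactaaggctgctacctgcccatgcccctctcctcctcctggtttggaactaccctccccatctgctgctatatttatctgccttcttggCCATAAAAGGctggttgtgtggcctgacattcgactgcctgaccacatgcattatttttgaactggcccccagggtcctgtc
DMD, chrX:33211500-33211799: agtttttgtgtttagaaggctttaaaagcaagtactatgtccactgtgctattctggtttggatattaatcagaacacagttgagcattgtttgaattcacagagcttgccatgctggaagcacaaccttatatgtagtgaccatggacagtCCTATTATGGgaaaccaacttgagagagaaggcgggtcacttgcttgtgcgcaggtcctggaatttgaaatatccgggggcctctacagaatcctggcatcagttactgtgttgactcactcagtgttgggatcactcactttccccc
The members with a MEF2 element were *MYL1*, *MYBPC3*, *TTN*, *MYOZ1*, *MYOZ2* and *MYF6*, and of these *TTN* was the only one that passed in an induction, downward. *MYBPC3* was not measured, and *MYL1*, *MYOZ1*, *MYOZ2* and *MYF6* had means under 5, at 2.62, 4.55, 2.70 and 2.94. A CArG box was in *ACTA1*, *ACTC1*, *MYL7*, *MYOM1*, *LDB3* and *DMD*, and of these *MYOM1* and *DMD* rose with MEF2C in medium. The letters CANNTG of the E-box, bound by the MyoD family, were in the windows of 26 of the 30 members and in those of 73.1% of all genes. TGGGAA, the core of the site of CSL, through which NOTCH1 acts, was in 7 of 30 members (*NEB*, *MYBPC3*, *TTN*, *ANKRD1*, *DMD*, *MB* and *ACTA2*) and in 28.1% of all genes. A match describes these letters in these windows and does not show binding.

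*TTN*, which codes for the giant spring protein titin, fell in all 3 cultures. In medium it read 7.64, 7.93 and 7.90 without dox and 6.24, 6.42 and 6.18 with dox. On OP9-GFP it read 7.77, 7.94 and 7.63 without dox and 6.58, 6.55 and 6.49 with dox. On OP9-DL1 it read 7.50, 7.35 and 7.41 without dox and 6.36, 6.46 and 6.37 with dox. All 9 arrays with dox were below all 9 without. The log2 fold changes were -1.54 ± 0.11, -1.24 ± 0.11 and -1.02 ± 0.11 (limma, adjusted p = 1.66e-10, 1.28e-08 and 4.06e-07), and the fall in medium ranked 16 from the lowest among 19775 genes.

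*TTN* fell with ICN as well, though less. In the ICN line it read 7.58, 7.34 and 7.28 without dox and 6.84, 6.47 and 6.65 with dox, again without overlap. In the MEF2C and ICN line it read 5.21, 4.97 and 5.33 without dox and 5.12, 4.91 and 4.82 with dox, and the groups overlapped. The fall with ICN was -0.74 ± 0.11 (limma, adjusted p = 2.12e-05), and MEF2C in medium minus ICN was -0.80 ± 0.16 (limma, adjusted p = 0.000741). With both the change was -0.22 ± 0.11 (limma, adjusted p = 0.221), which differed from MEF2C in medium by 1.32 ± 0.16 (limma, adjusted p = 7.96e-07). It was 0.52 ± 0.16 above that with ICN (limma, adjusted p = 0.0396), a call lost in 7 of 12 fits that left out 1 array (up to 0.125 at a difference of 0.43, without replicate 1 of the uninduced ICN line) and with arrays centred on their medians (adjusted p = 0.0787). Without dox, *TTN* in the MEF2C and ICN line minus the MEF2C line was -2.65 ± 0.11 (limma, adjusted p = 2.41e-15), which left it close to the background level of 5. With dox it read 4.91 and 4.82 there on replicates 2 and 3, under that level, so the differences from the response to both are not exact. Of the 6 probe sets of *TTN*, 4 fell with MEF2C in medium, by 0.52 to 1.58, and the other 2, with means of 3.21 and 2.64, did not pass.

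*DMD*, the gene of dystrophin, rose with MEF2C and fell with ICN. In medium it read 8.55, 8.70 and 8.51 without dox and 9.57, 9.76 and 9.70 with dox. On OP9-GFP it read 8.88, 9.10 and 8.69 without dox and 9.62, 9.56 and 9.58 with dox. On OP9-DL1 it read 8.28, 8.60 and 8.50 without dox and 9.13, 9.10 and 9.01 with dox. Within each culture all arrays with dox were higher. The log2 fold changes were 1.09 ± 0.10, 0.70 ± 0.10 and 0.62 ± 0.10 (limma, adjusted p = 8.95e-09, 1.79e-05 and 9.82e-05). In the ICN line it read 8.29, 8.41 and 8.18 without dox and 7.71, 7.65 and 7.60 with dox. With both constructs it read 8.53, 8.61 and 8.44 without dox and 7.92, 7.90 and 7.65 with dox. Both lines with ICN had every dox array below every array without, and the falls were -0.64 ± 0.10 and -0.71 ± 0.10 (limma, adjusted p = 2.74e-05 and 4.26e-06). The 2 falls differed by -0.07 ± 0.14, with a 95% interval from -0.35 to 0.21 (limma, adjusted p = 0.849). The response to both minus that to MEF2C in medium was -1.80 ± 0.14 (limma, adjusted p = 3.06e-10). Of the 4 *DMD* probe sets, 3 rose in medium, by 0.67 to 1.09, and the fourth, with a mean of 1.83, changed by -0.00. With ICN the brightest alone passed, and with both 2 fell, by 0.71 and 0.65, while that of mean 1.83 rose by 0.32.

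The genes of the M band rose with MEF2C in medium. *MYOM1*, which codes for myomesin, read 5.27, 5.92 and 5.53 without dox and 6.96, 6.67 and 6.62 with dox in medium. The arrays on OP9-GFP gave 4.49, 5.04 and 4.80 without dox and 5.35, 5.13 and 5.35 with dox, and on OP9-DL1 4.55, 4.46 and 4.56 without and 5.11, 5.12 and 5.23 with dox. The arrays with dox were higher within each culture, and on stroma none exceeded the highest uninduced array in medium. The log2 fold change was 1.18 ± 0.17 in medium (limma, adjusted p = 2.43e-05), 0.50 ± 0.17 on OP9-GFP (limma, adjusted p = 0.0821) and 0.63 ± 0.17 on OP9-DL1 (limma, adjusted p = 0.0262). On OP9-DL1 the arrays without dox were under 5, and the rise was at least 1.11-fold. The call there was lost without any 1 of its 6 arrays (adjusted p up to 0.106 at 0.59, without replicate 3 with dox), and the difference between OP9-GFP and medium, -0.68 ± 0.24, did not pass (limma, adjusted p = 0.389). *MYOM1* read 4.67, 4.60 and 4.64 without dox and 4.23, 4.56 and 4.59 with dox in the ICN line. It read 4.18, 4.50 and 4.59 without dox and 3.92, 4.69 and 4.44 with dox in the MEF2C and ICN line. Both pairs lay under 5, the second with overlap, and the response to both minus that to MEF2C in medium was -1.25 ± 0.24 (limma, adjusted p = 0.000655).

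*MYOM2*, a second M band protein of the same family, read 7.46, 7.46 and 7.53 without dox and 8.09, 8.14 and 8.06 with dox in medium. Its values on OP9-GFP were 7.46, 7.53 and 7.19 without dox and 7.57, 7.49 and 7.46 with dox. The arrays on OP9-DL1 gave 7.15, 7.21 and 7.18 without dox and 7.24, 7.24 and 7.16 with dox. In medium the groups stood apart, and on both stromas they overlapped. The rise was 0.61 ± 0.07 in medium (limma, adjusted p = 2.3e-06), 0.11 ± 0.07 on OP9-GFP and 0.03 ± 0.07 on OP9-DL1 (limma, adjusted p = 0.462 and 0.94). The difference between OP9-GFP and medium was -0.50 ± 0.11 (limma, adjusted p = 0.0275), a call lost in 9 of 12 fits that left out 1 array (up to 0.099 at -0.48, without replicate 3 on OP9-GFP with dox). In the ICN line *MYOM2* read 7.18, 7.20 and 7.19 without dox and 6.82, 6.80 and 6.84 with dox. The line with both constructs gave 7.15, 7.12 and 7.30 without dox and 6.64, 6.59 and 6.39 with dox. Every array with dox was lower in both lines, with changes of -0.37 ± 0.07 and -0.65 ± 0.07 (limma, adjusted p = 0.00084 and 2.62e-07).

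*MB*, the gene of myoglobin, the oxygen store of muscle, rose with MEF2C and fell in both lines with ICN. In medium it read 5.14, 4.60 and 4.75 without dox and 5.32, 5.24 and 5.47 with dox. The arrays on OP9-GFP gave 6.18, 6.37 and 6.24 without dox and 6.84, 6.88 and 6.80 with dox. Its values on OP9-DL1 were 6.01, 5.87 and 6.03 without dox and 6.66, 6.52 and 6.46 with dox. The arrays with dox were higher in each culture, and all arrays on stroma were higher than all in medium. The rises were 0.51 ± 0.10, 0.58 ± 0.10 and 0.58 ± 0.10 (limma, adjusted p = 0.00121, 0.000285 and 0.000328), the first not passing in a fit on its 2 groups alone (adjusted p = 0.0871). In medium without dox 2 of 3 arrays were under 5, and the rise there was at least 1.23-fold. OP9-GFP against medium without dox gave 1.43 ± 0.10 (limma, adjusted p = 1.14e-10). Pooled over the 3 cultures, with no term for culture, the rise of 0.56 ± 0.29 did not pass (limma, adjusted p = 0.36).

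In the ICN line *MB* read 7.33, 7.39 and 7.36 without dox and 5.59, 5.47 and 5.51 with dox. With both constructs it read 7.92, 8.09 and 8.15 without dox and 5.92, 6.01 and 5.86 with dox. Both lines fell far outside the spread of their arrays. The falls were -1.84 ± 0.10 with ICN, or 3.58-fold, and -2.12 ± 0.10 with both, or 4.36-fold (limma, adjusted p = 2.71e-13 and 6.72e-15). They differed by -0.28 ± 0.14, with a 95% interval from -0.57 to 0.01 (limma, adjusted p = 0.269). *MB* was high in these 2 lines before induction. Without dox the ICN line stood 2.53 ± 0.10 above the MEF2C line and the MEF2C and ICN line 3.22 ± 0.10 above it (limma, adjusted p = 6.61e-16 and 5.34e-18), or at least 4.98-fold and 8.02-fold with the MEF2C line's arrays set to no less than 5. The uninduced arrays serve both in these differences between lines and in the falls, so the 2 kinds of value are not independent.

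**Figure D3:**
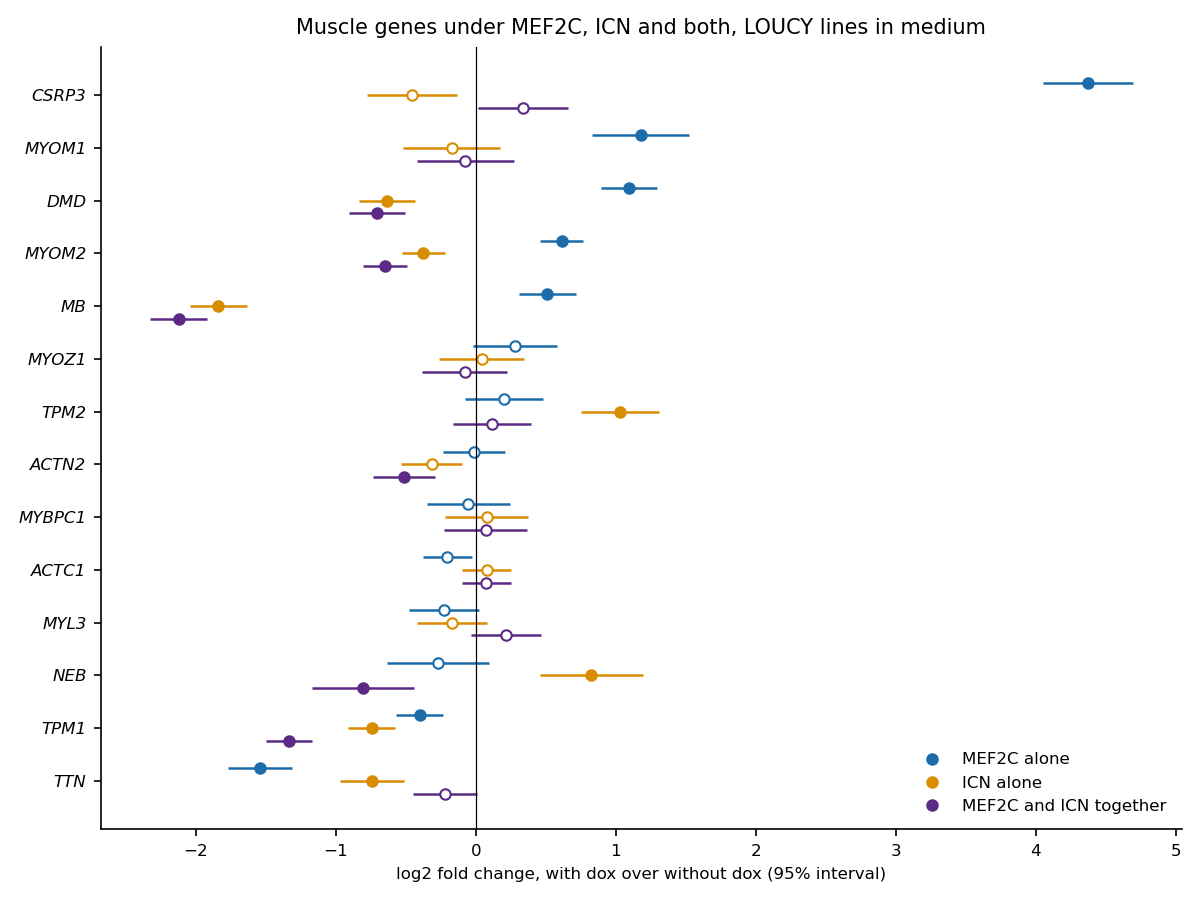
Log2 fold change with dox over without dox, in medium, of the 14 muscle genes that passed in any comparison, for MEF2C alone, ICN alone and both together; lines are 95% intervals and filled points passed at an adjusted p under 0.05. *CSRP3*, *MYOM1*, *DMD*, *MYOM2* and *MB* rose with MEF2C alone, and none of the 14 rose with both together.

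ICN alone raised 2 of the 41 members and lowered 5, beside 6.44% and 9.42% of all genes. The median over the members was -0.06 and over all genes -0.03. *TPM2* and *NEB* rose, and *TTN*, *DMD*, *MYOM2*, *MB* and *TPM1* fell. MEF2C and ICN together raised 0 members and lowered 6, beside 5.84% and 10.9% of all genes, with 9 of 41 members at an unadjusted p under 0.05 (limma), beside 27.8% of all genes. Those that fell were *TPM1*, *NEB*, *MYOM2*, *ACTN2*, *DMD* and *MB*. The 2 ICN inductions thus both lowered *DMD*, *MB*, *MYOM2* and *TPM1*, while *NEB* went opposite ways. The response to both was below that to MEF2C in medium for 7 members and above it for 1 (7.53% and 2.94% of all genes), and against ICN it was below for 3 and above for 2 (6.08% and 4.06%). MEF2C in medium minus ICN was above 0 for 5 members and below it for 3 (8.41% and 4.94%).

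*TPM1*, an alpha tropomyosin of the thin filament that non-muscle cells use too, fell in each of the 5 inductions taken singly. In medium it read 9.34, 9.51 and 9.40 without dox and 9.10, 8.97 and 8.97 with dox. Its values on OP9-GFP were 10.15, 10.32 and 10.004 without dox and 9.51, 9.54 and 9.63 with dox. The arrays on OP9-DL1 gave 10.01, 10.05 and 9.95 without dox and 9.66, 9.65 and 9.49 with dox. The ICN line gave 9.22, 9.20 and 9.15 without dox and 8.52, 8.38 and 8.43 with dox, and the MEF2C and ICN line 9.67, 9.79 and 9.71 without and 8.55, 8.34 and 8.27 with dox. Within each culture and line the groups did not overlap. The changes were, with MEF2C, -0.40 ± 0.08 (medium), -0.60 ± 0.08 (OP9-GFP) and -0.40 ± 0.08 (OP9-DL1), then -0.75 ± 0.08 with ICN and -1.34 ± 0.08 with both (limma, adjusted p from 1.17e-12 to 0.00207). The change with both minus that with MEF2C in medium was -0.93 ± 0.11, and minus that with ICN -0.59 ± 0.11 (limma, adjusted p = 1.31e-06 and 0.000867). Of its 6 probe sets, 5 fell with both, by 0.77 to 1.34. Pooled over the 3 cultures, the change of -0.47 ± 0.14 had an adjusted p of 0.0531 (limma).

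*TPM2*, a beta tropomyosin, differed most between the lines. Values in the ICN line were 2.69, 2.77 and 3.00 without dox and 4.22, 3.80 and 3.54 with dox. The line with both constructs gave 7.72, 7.74 and 7.95 without dox and 7.98, 7.94 and 7.84 with dox. In the MEF2C line in medium it read 6.73, 7.20 and 7.26 without dox and 7.21, 7.33 and 7.26 with dox. The ICN line was far below both others, and within it the arrays with dox were higher than those without. Without dox its difference from the MEF2C line was -4.24 ± 0.14 as fitted (limma, adjusted p = 1.3e-17), and since all its arrays were under 5, the ICN line was lower by at least 4.18-fold. ICN raised it by 1.03 ± 0.14 (limma, adjusted p = 3.68e-06), at values that stayed under 5 with and without dox, so no fold is given. With both the change was 0.11 ± 0.14 (limma, adjusted p = 0.682). The arrays on OP9-GFP gave 7.05, 7.29 and 7.43 without dox and 6.80, 6.66 and 6.85 with dox, and on OP9-DL1 6.89, 6.97 and 7.02 without and 6.84, 6.85 and 6.76 with dox. The fall of 0.49 ± 0.14 on OP9-GFP (limma, adjusted p = 0.0284) was lost in 4 of 6 fits without 1 array (up to 0.128 at -0.43, without replicate 2 with dox). The other probe sets of *TPM2* did not follow: none of the 3 moved with ICN, by -0.05 to 0.16, though 2 of them were also lower in the ICN line, at -0.88 and -0.35, and the mean of all 4 did not pass for the fall on OP9-GFP (adjusted p = 0.855) or for the differences of both minus ICN and of MEF2C minus ICN (adjusted p = 0.628 and 0.286).

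**Figure D4:**
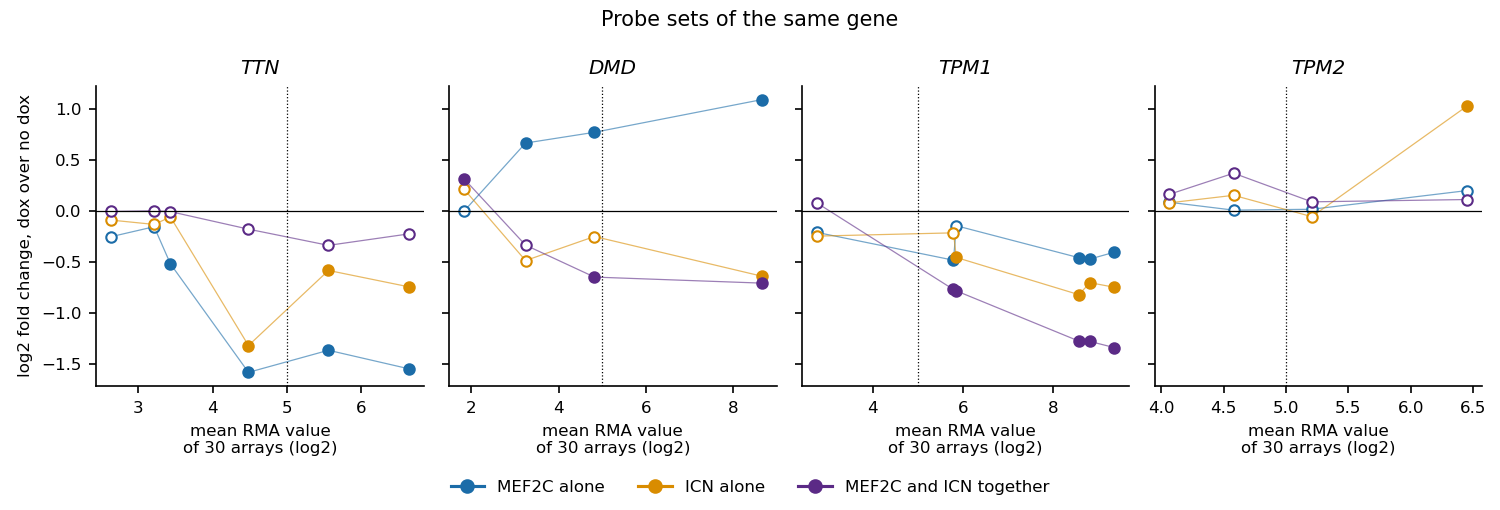
Log2 fold change with dox over without dox, in medium, of every probe set of *TTN*, *DMD*, *TPM1* and *TPM2* against its mean RMA value (log2) over 30 arrays, for MEF2C alone, ICN alone and both; filled points passed at an adjusted p under 0.05 and the dotted line is the background level of 5. The brighter probe sets of *TTN*, *DMD* and *TPM1* moved the same way, and of *TPM2* only the brightest rose with ICN, by 1.03, at values under 5 in the ICN line.

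*NEB*, which codes for nebulin, the ruler of the thin filament, rose above background with ICN alone. The ICN line gave 4.53, 4.62 and 4.26 without dox and 5.49, 5.15 and 5.25 with dox. With both constructs it read 4.51, 3.72 and 4.17 without dox and 3.47, 3.21 and 3.30 with dox. The groups stood apart in both lines, in opposite directions. ICN raised it by 0.83 ± 0.18 and with both it changed by -0.81 ± 0.18 (limma, adjusted p = 0.00187 and 0.00198), a difference of -1.63 ± 0.25 (limma, adjusted p = 5.75e-05). The rise with ICN was at least 1.23-fold, from arrays under 5, and with both all arrays were under 5, so no fold is given. In the MEF2C line all values were under 5, at 3.50, 3.05 and 3.64 without and 3.28, 3.07 and 3.03 with dox in medium. They were 3.50, 4.03 and 3.96 without and 3.33, 3.07 and 3.66 with dox on OP9-GFP, and 4.04, 3.73 and 3.87 without and 3.34, 3.36 and 3.26 with dox on OP9-DL1. The groups overlapped in medium and on OP9-GFP but not on OP9-DL1. The change was -0.27, -0.48 and -0.56 ± 0.18 in the 3 cultures, none of which passed alone (limma, adjusted p = 0.494, 0.125 and 0.0818), and -0.44 ± 0.12 over them (limma, adjusted p = 0.0272). That call was lost without replicate 1, 2 or 3 in turn, with changes from -0.47 to -0.40 (adjusted p up to 0.219, without replicate 3), and without OP9-GFP or OP9-DL1 (adjusted p = 0.163 and 0.278). The second probe set of *NEB*, with a mean of 3.13, moved in no comparison.

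The other members that passed did so by little. *ACTN2*, the muscle alpha-actinin that crosslinks thin filaments at the Z disc, fell by 0.51 ± 0.11 with both (limma, adjusted p = 0.00108). Its response to both minus that to MEF2C in medium was -0.50 ± 0.15 (limma, adjusted p = 0.0401), which was lost in 9 of 12 fits without 1 array (up to 0.124 at -0.42, without replicate 1 of the MEF2C line in medium with dox). A second *ACTN2* probe set also fell with both, by 0.53, and the remaining 2 did not. *MYBPC1*, a myosin-binding protein of slow muscle with a mean of 2.63, well under background, changed by -0.49 ± 0.14 on OP9-GFP with MEF2C (limma, adjusted p = 0.0436), a call lost in 4 of 6 fits without 1 array (up to 0.217 at -0.39, without replicate 3 with dox) and after quantile normalization (adjusted p = 0.055).

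Stroma was also compared without dox. On OP9-GFP against medium without dox 5 members rose and 3 fell, beside 10.8% and 11.5% of all genes. *MB* and *TPM1* rose by 1.43 and 0.74, while *CSRP3*, *MYOM1* and *ACTN2* fell by 0.81, 0.80 and 0.46. *MYOZ1*, a Z disc protein that binds calcineurin, *DMD* and *ACTC1*, the cardiac actin, rose by 0.46, 0.31 and 0.25, and each of these 3 calls was lost when 1 array was left out (adjusted p up to 0.149 at 0.36 without replicate 3 in medium, 0.182 at 0.20 without replicate 2 on OP9-GFP and 0.297 at 0.14 without replicate 3 on OP9-GFP). Both groups were under 5 for *CSRP3* (on 5 of 6 arrays) and *MYOZ1*. Most arrays were also under 5 for *MYOM1* on OP9-GFP and for *MB* in medium, so the sizes of these changes are not exact. Replicate 3 on OP9-GFP read highest for *LOX*. Without it, *MB* and *TPM1* rose by 1.44 and 0.82, and *MYOM1* fell by 0.81. Replicates 1 and 2 there also read higher for *LOX*, at 3.64 and 4.49, than the arrays in medium, at 2.43 to 2.96. These values are all under 5, where a difference in level cannot be read, and other stromal markers were lower there, as given above. The part of stromal RNA in these changes was not tested. In a fit on the 2 groups alone *ACTN2* did not pass (limma, adjusted p = 0.0595). OP9-DL1 against OP9-GFP without dox lowered 1 member, *DMD*, by 0.43 ± 0.10 (limma, adjusted p = 0.017) and raised 0, beside 0.612% and 1.02% of all genes, and 8 of 41 members had an unadjusted p under 0.05, beside 11.9% of all genes. The Notch target *HES1* rose by 1.86 on OP9-GFP against medium and by 1.89 on OP9-DL1 against OP9-GFP (limma, adjusted p = 1.31e-12 and 4.11e-12). The call of *DMD* was lost without replicate 1 on OP9-DL1 (-0.34, adjusted p = 0.161). MEF2C induction on OP9-DL1 and on OP9-GFP differed for 0 members (limma, 1 of 41 at an unadjusted p under 0.05, beside 6.26% of all genes), where 0.0556% of all genes were above and 0.0759% below, and induction on OP9-GFP was lower than in medium for 2, *CSRP3* and *MYOM2*, and higher for 0 (0.389% and 0.101%).

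The lines differed before any dox was given, in Notch targets, as given above, and in muscle genes. Without dox 2 members were higher and 8 lower in the ICN line than in the MEF2C line, both in medium, beside 12.9% and 12.3% of all genes. *MB* and *NEB* were higher, by 2.53 and 1.07, and *TPM2*, *CSRP3*, *MYOM1*, *TTN* and *MYOM2* lower, with differences of -4.24, -1.23, -0.94, -0.43 and -0.29. *MYL3*, a ventricular myosin light chain, *DMD* and *TPM1* differed by -0.35, -0.29 and -0.23, each lost when 1 array was left out (adjusted p up to 0.179 at -0.27 without replicate 3 of the MEF2C line, 0.145 at -0.24 without replicate 3 of the ICN line and 0.154 at -0.18 without replicate 2 of the MEF2C line). In the MEF2C and ICN line 4 were higher and 4 lower, beside 12% and 11.9%. *MB*, *TPM2*, *NEB* and *TPM1* were higher, by 3.22, 0.74, 0.74 and 0.31, and *TTN*, *CSRP3*, *MYOM1* and *MYOM2* lower, with differences of -2.65, -1.23, -1.15 and -0.29. *CSRP3* and *NEB* were under 5 in all 3 lines without dox, but for 1 array of *CSRP3*, and *MYOM1* and, in the ICN line, *TPM2* and *MYL3* were under 5 in the lines with ICN, so these differences are not exact. The same holds for *MB*, which was under 5 on most uninduced arrays of the MEF2C line in medium. These differences and MEF2C induction in medium share the uninduced MEF2C arrays.

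The remaining 27 members passed in none of the 15 comparisons. The share of all genes that passed in none was not counted, so this number is not set against it. Their means ran from 2.20 to 6.09, 6 of them at 5 or more, and their changes in the inductions from -0.29 to 0.40. They were 5 thin filament genes (*ACTA1*, *TNNC1*, *TNNI1*, *TNNI3* and *TNNT1*), 7 of the thick filament (*MYH2*, *MYH6*, *MYH7*, *MYL1*, *MYL2*, *MYL4* and *MYL7*), 7 of the Z disc, intermediate filaments and related proteins (*ANKRD1*, *DES*, *LDB3*, *MYOT*, *MYOZ2*, *PDLIM3* and *TCAP*), and *CKM*, the muscle creatine kinase. Both smooth muscle genes, *ACTA2* and *TAGLN*, and all 5 myogenic factors, *MYOD1*, *MYOG*, *MYF5*, *MYF6* and the SRF partner *MYOCD*, complete them. *MYH6* and *MYH7* are near-identical in sequence, so their probe sets may read either. The myogenic factors read between 2.52 and 5.55 on all arrays, only *MYOD1* had a mean over 5 (5.14), and their changes in the inductions lay between -0.23 and 0.28. A p that misses the threshold does not show that a gene did not move, and a second probe set of *TAGLN*, with a mean of 4.21, rose by 0.64 with ICN.

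Muscle genes outside the list were counted as well. Of 77 other muscle genes measured, 4 rose and 1 fell over the 3 cultures, where 3.4% and 3.79% of all genes did. These were *PALLD*, *RYR2*, *PDLIM5* and *ANKRD23*, up by 0.50, 0.42, 0.40 and 0.34, and *XIRP2*, which changed by -0.57; their products are, in turn, an actin bundler, the cardiac calcium release channel, a Z disc LIM protein, an ankyrin repeat protein that binds titin and an actin-binding repeat protein. With ICN 1 rose, *ANKRD23* by 0.46, and 4 fell, *JPH1*, *MYLK2*, *MYLK4* and *ENO3*, by 0.76, 0.74, 0.51 and 0.29 (6.44% and 9.42% of all genes). With both, 2 rose and 10 fell (5.84% and 10.9%), and the response to both was below that to MEF2C in medium for 10 and above it for 0 (7.53% and 2.94%). Among 16 contractile genes that non-muscle cells use, 1 rose and 3 fell over the 3 cultures, and 0 rose and 7 fell with both, against the same shares of all genes. Of 25 genes of the MEF2 and SRF axis, 3 rose over the 3 cultures, *HDAC5*, *MRTFA* and *ID3*, by 0.37, 0.41 and 0.56, and *MEF2C*, by its brightest probe set, which reads the cell's own transcript and not the construct, fell by 1.06, while with both 4 rose and 6 fell, again beside 3.4% and 3.79% over the cultures and 5.84% and 10.9% with both.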

How the data were processed

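The 30 RNA samples were each run on 1 array (Affymetrix HG U133 Plus 2.0). The deposited values are log2 signals per probe set that the authors made with RMA, which corrects background, normalises quantiles across arrays and summarises the probes of a set; R 3.6.3 with affy 1.64.0 is listed in the processing notes of the submitters. They ran from 1.405 to 13.99, with array medians of 4.759 to 4.841. Arrays have no read depth, so their number (3 a group) limits the precision.

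After 62 control probe sets were removed, 54613 were tested with limma 3.58.1 in R 4.3.3, and p-values were adjusted over all of them by the Benjamini-Hochberg method. A gene passed at an adjusted p under 0.05. MEF2C induction over the 3 cultures was fitted on 18 arrays without a covariate, as in the study's design, and the other 14 comparisons came from 1 model of all 10 groups. Of 54675 probe sets, 41097 list 1 gene symbol, 1801 several and 11777 none in the platform annotation; genes were named from the first kind only. A gene is represented by the probe set with the highest mean.

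Members and gene lists (Notch targets, LOUCY lineage and stromal markers, other muscle genes, non-muscle contractile genes, MEF2 and SRF axis) were chosen with earlier results of these data known. Members that passed beyond 1 on the log2 scale in an induction, or in a difference between inductions, are given on every array, the others that passed by their change, and the rest by range. Of the other muscle genes, up to 5 in each direction are named. Where 1 of 2 groups lay under a log2 value of 5 on at least 2 of its 3 arrays, values under 5 were set to 5 and the fold is given as a bound, and where both did, no fold is given. The level of 5 was chosen here, since the deposited values hold no detection calls. The scripts were tested on simulated data. Alternatives were another normalization, centring, a filter on dim probe sets, another variance prior and the mean of a gene's probe sets. Others were the replicate number as a block, the study's criteria, a Student's t-test, a fit on the compared groups alone, and leaving out single arrays or cultures.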

Additional observations from a re-analysis of the deposited data

Results flagged for a closer look

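In 23 instances a member's response differed between inductions by a test of the difference itself (limma, adjusted p from 2.29e-14 to 0.0401). MEF2C and ICN together minus MEF2C in medium gave -4.036 for *CSRP3*, -2.634 for *MB*, -1.798 for *DMD*, -1.263 for *MYOM2*, -1.253 for *MYOM1*, -0.9348 for *TPM1*, -0.5003 for *ACTN2* and 1.322 for *TTN* on the log2 scale. Both together minus ICN gave -1.631 for *NEB*, -0.9165 for *TPM2*, -0.5914 for *TPM1*, 0.5191 for *TTN* and 0.7932 for *CSRP3*. MEF2C in medium minus ICN gave 4.829 for *CSRP3*, 2.352 for *MB*, 1.73 for *DMD*, 1.352 for *MYOM1*, 0.9882 for *MYOM2*, -0.8032 for *TTN*, -0.8287 for *TPM2* and -1.097 for *NEB*. These 3 sets of differences share arrays. For *CSRP3*, *MYOM1*, *NEB*, *TPM2*, *MB* and *TTN* some of the groups lie under the background level of 5 on most or all arrays, so their sizes are not exact. MEF2C on OP9-GFP minus in medium gave -1.053 for *CSRP3* and -0.5015 for *MYOM2*.

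Over the 9 arrays of the MEF2C line with dox or the 9 without, 3 members had 1 array far from the others. *TNNC1* read 3.372 on OP9-DL1 with dox, replicate 2, with the next array at 3.651. *MYL1* read 2.928 on OP9-DL1 with dox, replicate 3, with the next at 2.654. *MYH2* read 2.641 on OP9-GFP without dox, replicate 3, with the next at 2.29. All 3 are under the background level of 5, and 82 sets of arrays were looked at. The cut-off marks about 1 in 20 sets by chance where all 9 arrays come from 1 population. Each set here pools 3 cultures, so that rate need not hold.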

How the results depend on the processing

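No direction turned under any alternative. With culture as a covariate 9 members passed over the 3 cultures in place of 4, and without the culture medium 8. A Student's t-test, adjusted, left 4 of 7 in medium, 2 of 7 on OP9-GFP, 3 of 6 on OP9-DL1 and 4 of 7 with ICN. The study's methods name that test for gene expression levels in LOUCY, but limma for the arrays. Under the criteria of the study (a log2 fold change beyond 0.6, p under 0.05 and adjusted p under 0.1), 3 passed for MEF2C on OP9-GFP, 3 for both minus ICN, 1 for OP9-GFP minus medium, 4 for OP9-GFP against medium, 0 for OP9-DL1 against OP9-GFP and 5 for the ICN line. A fit on the compared groups alone gave 3 for both minus ICN, 0 for OP9-GFP minus medium, 4 for OP9-GFP against medium and 0 for OP9-DL1 against OP9-GFP, which gave 2 after quantile normalization. Leaving out 1 array gave 3 to 5 members for both minus ICN, 0 to 2 for OP9-GFP minus medium and 0 to 2 for OP9-DL1 against OP9-GFP. The cause of these changes was not tested. Of 87 calls of a member in a comparison, 27 were lost under the criteria of the study, 16 in fits on the compared groups alone, 8 with the mean of a gene's probe sets, 3 with centring, and 2 each with quantile normalization and with the other variance prior. Of 37 calls tested, 16 were lost with the Student's t-test. Over single arrays left out, 567 repeats kept a call and 81 lost it. Arrays of 2 groups with the same replicate number were correlated in their deviations from the group means. Over 135 such pairs of arrays r ran from -0.36 to 0.33, with a median of 0.005 and 29 over 0.1. Arrays with different numbers were not correlated for reference, so whether a number marks shared handling was not tested. With the replicate block 4 members passed over the 3 cultures, and all 87 calls were kept. Centring moved the median of all genes by little, and dim probe sets limit what can be read of the 26 members under 5.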
